A study of Arabidopsis thaliana with 4 samples.

Results

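Transcripts of 136 Arabidopsis thaliana loci that carry a locus number but no gene symbol were strongly lower in agamous inflorescences than in wild-type inflorescences, under the likely reading of the array directions. The members were chosen by their measured log2 ratios on all 4 arrays. A locus had to be the single gene listed for an A-numbered oligonucleotide probe, have a value on all 4 arrays, average -2 or lower (a 4-fold difference), and stand at -1 or lower on every array. Of 4900 unnamed loci on these probes, 4828 had 4 values and 136 met the rule, which is 2.82%. The same limits with the opposite sign (2 or higher on average, 1 or higher on every array) were met by 1 locus. As the ratios chose the members, their size and sign are a description and carry no test.

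Agamous is a mutant of the MADS-domain transcription factor AGAMOUS. Its RNA came from inflorescences, as did that of the wild type, and each array was hybridised with both in 2 colours. By the labels, channel 1 holds the agamous RNA on arrays 1 and 3, and channel 2 holds it on arrays 2 and 4. They give no allele, ecotype, age or plant number for either group. AGAMOUS is needed to form stamens and carpels and to stop the floral meristem from making further organs. Flowers without it repeat sepals and petals in place of the reproductive organs. An inflorescence of such flowers lacks the cells of anthers, pollen, carpels and ovules. As the labels give no allele, how complete the loss was in these samples is not known. The tapetum, the inner cell layer of the anther, is known for making the lipid and protein coat of pollen and the precursors of its outer wall, and growing pollen tubes and styles are known for secreting enzymes that loosen the cell wall. In whole inflorescences, fewer cells of a type and less RNA per cell cannot be told apart. The annotation used here pairs none of the 136 loci with a product, so that no member is assigned to lipid transfer proteins, lipases, wall enzymes, pollen coat proteins or any other family.

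The direction of the ratios is not settled. The deposited ratios end at bounds of 6.64 and -6.64. Over the features between these bounds, arrays 1 and 4 correlated across features with Pearson's r of 0.70, those of arrays 2 and 3 with 0.75, and every pair across these 2 groups below -0.6. Arrays 1 and 3, alike in channel order by the labels, had an r of -0.64, and arrays 2 and 4, also alike, one of -0.71. With the values at the bounds kept, arrays 1 and 3 had an r of 0.06 and arrays 3 and 4 one of 0.11, while their ranks still ran against each other (Spearman's rho -0.34 and -0.33). Arrays 2 and 3 then had an r of 0.40 and a rho of 0.59, so that array 3 went with array 2 on both measures. On arrays 1, 3 and 4 the upper bound holds 1112, 498 and 1067 deposited values, against 83 on array 2. The lower bound holds 36, 203, 42 and 33 on arrays 1 to 4. Array 3 thus had more values at the upper than at the lower bound, as arrays 1 and 4 did, and array 2 fewer. Of the members' values 3 lie at a bound. All values below are for arrays 2 and 3 with their sign turned. That this reads as agamous over wild type is likely from the anatomy of the mutant. With the opposite overall sign each member is higher in agamous by the same amount, with a median of 3.11 in place of -3.11. As deposited, and with arrays turned by the labels, 0 loci met the rule, and the median of the same 136 loci was 0.31 and 0.02. Markers gave the following values in the likely direction. Of 16 anther and tapetum genes 3 were measured, between -3.77 and -0.22, the only measured pollen gene of 8 stood at -0.44, the only measured nectary gene of 5 at -4.55, and 2 of 7 carpel and ovule genes at -4.99 and -1.52. The 2 measured photosynthesis genes of 4 had 0.33 and 0.04, and 0 of 5 petal and sepal genes were measured. The part of lost organs in the members' ratios was not tested.

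The median of the members' means was -3.11, an 8.63-fold lower ratio, against 0.18 over the 4828 unnamed loci with 4 values. On single arrays the members' medians were -2.83, -3.30, -3.53 and -2.83 on arrays 1 to 4, against 0.19, 0.18, 0.15 and 0.16 for those loci. Of the members, 4 averaged -5 or lower, 17 lay between -5 and -4, 53 between -4 and -3, and 62 between -3 and -2. On every array 89 members stood at -2 or lower and 41 at -3 or lower. The SD over the 4 arrays had a median of 0.54 and ran from 0.17 to 2.24. In the fit across all features, 134 of the 136 members passed limma's test as lower, beside 9.19% of the 26128 features tested. The rule used the same ratios, so nothing is read from that count. The 2 members outside it, AT4G20790 and AT1G43630, are among those with the widest spread.

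**Figure D1:**
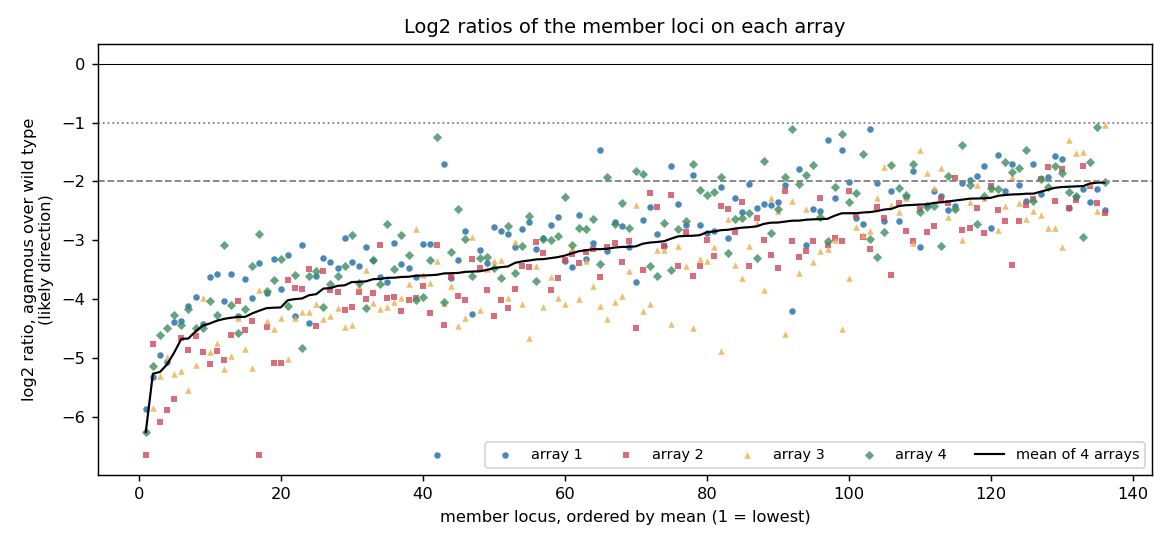
Log2 ratios (y axis) of the 136 member loci, ordered by mean (x axis), with 1 symbol per array, the black line at the mean of the 4 arrays, and dashed and dotted lines at the limits of -2 for the mean and -1 for each array. The lowest locus, AT3G01250, stands apart at -6.25, and 3 values lie at the lower bound of -6.64.

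The lowest member was AT3G01250. Its log2 ratios were -5.86, -6.64, -6.24 and -6.25 on arrays 1 to 4, the lowest value of all members on arrays 3 and 4. The value on array 2 is the bound of the deposited ratios, a 100-fold difference, and the mean of -6.25 ± 0.32 (SD, n = 4, 76.0-fold) therefore understates the difference if the ratio on array 2 passed the bound. AT3G01250 overlaps AT3G01260 in the reference annotation. AT3G26860 followed with -5.32, -4.76, -5.84 and -5.13, a mean of -5.26 ± 0.45 (SD, n = 4, 38.4-fold). AT5G62750 had -4.95, -6.09, -5.29 and -4.60, and averaged -5.23 ± 0.64 (SD, n = 4, 37.6-fold). AT3G52620 had -5.07, -5.88, -4.97 and -4.49, and averaged -5.10 ± 0.57 (SD, n = 4, 34.4-fold). These 4 loci are the members below -5. In each of them the 4 values lay within 1.5 of each other on the log2 scale once arrays 2 and 3 were turned, with AT3G01250 at the bound on array 2. As deposited, the values of arrays 2 and 3 had the opposite sign to those of arrays 1 and 4.

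The next 8 members averaged between -4.90 and -4.33. AT5G42170 had -4.38, -5.69, -5.26 and -4.27 on arrays 1 to 4 (29.9-fold), with arrays 2 and 3 lower than arrays 1 and 4. AT4G15750 had -4.37, -4.66, -5.21 and -4.44 (25.5-fold). AT3G46750 had -4.11, -4.86, -5.53 and -4.16 (25.4-fold). AT1G44970 had -3.96, -4.62, -5.11 and -4.49 (23.3-fold). In these 3 loci array 3 gave the lowest value and array 1 the highest. AT3G49270, with -4.42, -4.90, -3.98 and -4.48 (21.8-fold), was instead highest on array 3. AT1G28375 had -3.62, -5.09, -4.89 and -4.04 (21.3-fold). AT5G07600 had -3.58, -4.88, -4.74 and -4.26 (20.6-fold). Both were lowest on array 2 and highest on array 1. AT5G39870 had -4.03, -5.02, -5.19 and -3.09 (20.1-fold) and the widest SD of the 12 lowest members, 0.97.

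Members differed in how evenly the arrays measured them. The loci in this paragraph were chosen for their SD after the values were seen. AT4G04460 was the most even, with -3.45, -3.22, -3.12 and -3.08 (SD 0.17, n = 4). AT1G13670 had -3.44, -3.88, -3.78 and -3.72 (SD 0.19, n = 4). AT1G78460 had -3.09, -3.09, -3.16 and -2.71 (SD 0.20, n = 4), with array 4 apart from the others. AT1G24620 had -4.28, -4.02, -4.32 and -4.57 (SD 0.23, n = 4, 19.7-fold). For these loci the spread over arrays was small beside the ratio itself. At the other end, AT4G20790 had -6.64, -3.08, -3.35 and -1.25 (SD 2.24, n = 4), with array 1 at the bound and array 4 close to the limit of the rule. AT2G03200 had -3.39, -6.64, -3.84 and -2.88 (SD 1.68, n = 4), with array 2 at the bound. AT1G43630 had -1.46, -3.01, -4.50 and -1.19 (SD 1.53, n = 4). With the value at the bound left out, AT4G20790 averaged -2.56 and AT2G03200 -3.37. In AT1G43630 arrays 2 and 3 were well below arrays 1 and 4. Over the members, 43 had 4 values within 1 of each other and 4 had a range over 3.

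Arrays 2 and 3 gave larger differences than arrays 1 and 4. In 112 of the 136 members the mean of arrays 1 and 4 was above the mean of arrays 2 and 3, with a median difference of 0.63 between them, against 0.04 over all unnamed loci with 4 values. The difference ran from -0.91 to 2.42 and was over 1 in 31 members and under -1 in 0. The labelled channels did not divide the members in this way. The median difference between arrays 1 and 3 (agamous RNA in channel 1) and arrays 2 and 4 was -0.07, and 62 of 136 members had a positive one. The lowest of a member's 4 values fell on array 3 in 67 members, on array 2 in 45, on array 4 in 15 and on array 1 in 9. Arrays 2 and 3 are also those whose sign was turned, and the cause of the difference was not tested. Across the 136 members, Pearson's r between arrays ran from 0.53 (arrays 1 and 3) to 0.68 (arrays 2 and 3), and Spearman's rho from 0.54 to 0.69. Members chosen to be low on every array share that cut and the authors' normalization, and loci are no replicates of each other, so these coefficients are given without a p-value.

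**Figure D2:**
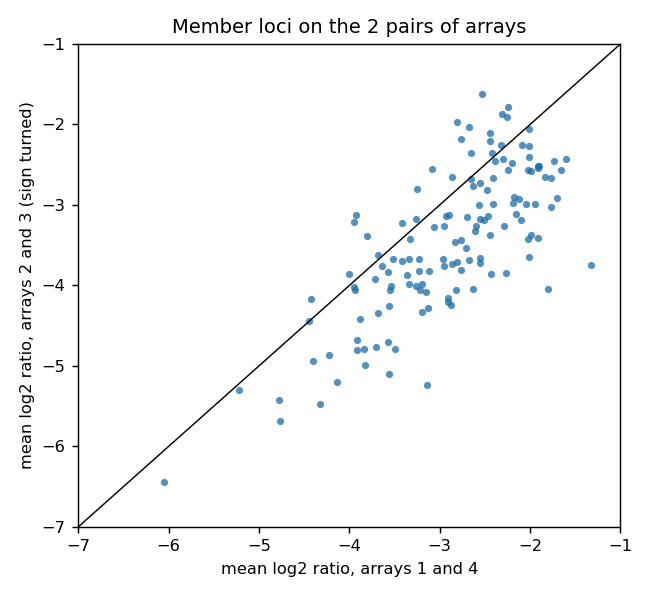
Mean log2 ratio of each of the 136 members on arrays 1 and 4 (x axis) against arrays 2 and 3 with their sign turned (y axis), 1 point per locus, with the line of equal values. Points of 112 members lie below the line.

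The choice was repeated on 3 arrays at a time, with the ratios of the array left out kept from the limits. With array 1 left out 141 loci were chosen, and 138 of them (97.9%) stood at -1 or lower on array 1, against 7.44% of all 4828 loci. With array 2 left out, 136 of 138 chosen loci (98.6%) did so, against 8.29%. With array 3 left out, 136 of 138 (98.6%) did so, against 8.80%, and with array 4 left out 143 of 150 (95.3%), against 7.58%. The chosen loci had medians of -2.78, -3.25, -3.50 and -2.72 on the arrays 1 to 4 left out, against 0.21, 0.19, 0.16 and 0.18 for the loci not chosen. Each chosen locus was below 0 on the array that was left out, with highest values of -0.75, -0.25, -0.28 and -0.10. As the signs of the arrays were set with all 4 arrays in view, agreement in sign was in part built in. Of the chosen loci 131 to 135 were members, so that the shares give no independent support. No label tells whether separate plants were used for each array, so that the agreement may be technical.

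**Figure D3:**
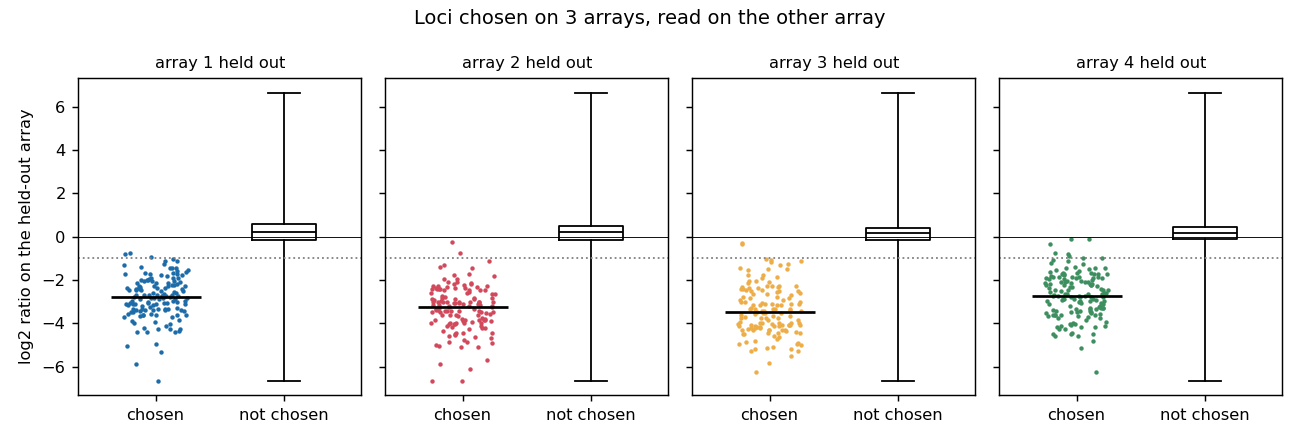
Log2 ratios on the array left out (y axis), in 1 panel per array, for loci chosen on the other 3 arrays (points, line at the median) and for all other unnamed loci with 4 values (box at the quartiles, whiskers at the lowest and highest value). The points lie below 0 in each panel, with medians between -3.50 and -2.72, and the boxes lie around 0.

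A second set of probes, numbered GP and not used by the rule, held 6 probes for 4 of the members. AT1G66850 had -3.98, -4.37, -5.16 and -3.44 on its A-numbered probe. Its GP probes averaged -5.41 and -5.26, lower than the probe that chose it. AT1G06260 had -3.32, -5.07, -4.50 and -3.67 on its A-numbered probe, and its GP probes averaged -4.92 and -4.88. For both loci, each GP probe was below -3.6 on every array. AT3G62710 had -3.11, -3.01, -3.52 and -2.79, and its GP probe -3.64, -4.16, -2.81 and -1.65, so that the means were close (-3.11 and -3.06) while the order of the arrays differed. AT3G04360 had -2.81, -3.43, -4.08 and -3.10, but -1.52, -1.70, -1.97 and -1.01 on its GP probe. Its GP probe thus gave a mean of -1.55 against -3.36, lower on every array than 0 but outside the rule. Of all GP probes with 4 values, 14.4% met the same rule. The 6 probes were hybridised with the same RNA and show only that GP probes of these 4 members were also below 0 on every array. Whether their sequences differ from those of the A-numbered probes was not examined.

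Within the A-numbered probes the picture was different. Each of the 136 members had 1 such probe, although 225 unnamed loci had several (498 probes). Of those 225 loci 0 met the rule, beside 2.82% of all unnamed loci with 4 values, and the lowest mean among them was -1.70. Their probes were averaged before the rule, so that a locus with 1 low probe could miss the limits. The difference in shares was not tested. Single probes of 5 of these loci met the rule. As 0 of the 225 loci met it on the average of their probes, another probe of each had to miss it. AT3G22660 had -2.11, -4.45, -4.84 and -2.03 on 1 probe, and 0.06, 0.31, 0.06 and 0.19 on the other. AT4G11290 had -2.52, -3.12, -3.13 and -3.71 on 1 probe and values between -0.82 and 0.17 on the other. AT4G10890 averaged -2.76, -0.52 and 0.45 on its 3 probes. The groups of values did not overlap between the probes of these 3 loci. AT5G62060 averaged -2.97 on 1 probe and had -0.28, -1.08, 6.64 and 0.59 on the other. AT3G26870 averaged -3.15 on 1 probe and had 6.64, 0.27, -0.76 and -1.98 on the other. The next gene to AT3G26870 is AT3G26860, the member with the second lowest mean. For most members a single probe carries the whole result, and whether it reads that locus alone was not tested.

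The rule was also applied to the other probes. Among 381 GP probes with 4 values, 55 met it (14.4%), the highest share of the classes compared. Among 535 loci with a symbol and 4 values, 26 met it (4.86%), among A-numbered probes that list several genes 3.66%, and among those that list no gene 3.37%. These shares were not tested against the 2.82% of the unnamed loci. Of 352 empty features with 4 values, 2 met the rule (0.568%), so that a ratio of this size can arise where no gene was probed. The 26 symbol-bearing loci ran from -4.99 to -2.30 on average, within the range of the members. In order of their means, the lowest 6 were CES (-4.99), a transcription factor, GRI (-4.79), a secreted protein, the sugar transporters SWEET8 (-4.68) and SWEET9 (-4.55), sks18 (-4.47), a relative of multicopper oxidases, and the expansin EXPA24 (-4.43), a protein that loosens cell walls. No product group is drawn from them.

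Of the members 36, 16, 38, 13 and 33 lay on chromosomes 1 to 5, as their locus numbers show. This is 26.5%, 11.8%, 27.9%, 9.56% and 24.3% of the members, against 25.1%, 14.6%, 21.8%, 14.6% and 23.9% of the unnamed loci with 4 values. All 136 are annotated as protein-coding, as are 4826 of those 4828 loci. In the order of protein-coding genes of TAIR10.1, 9 members had another member within 3 genes. AT3G29050, AT3G29060 and AT3G29070 are direct neighbours. AT3G29060 had -2.50, -2.28, -3.17 and -2.60 on arrays 1 to 4, and averaged -2.64 ± 0.38 (SD, n = 4). AT3G29050 had -1.82, -3.01, -3.05 and -1.71, and averaged -2.40 ± 0.73 (SD, n = 4). AT3G29070 had -2.17, -2.76, -2.11 and -2.42, and averaged -2.36 ± 0.30 (SD, n = 4). The 3 means lay within the spread of the arrays.

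The other groups held 2 members each. AT5G13350 had -3.33, -3.94, -4.46 and -2.47 and averaged -3.55 ± 0.85 (SD, n = 4). AT5G13380, 3 genes away, had -2.96, -3.21, -4.13 and -2.97 and averaged -3.32 ± 0.55 (SD, n = 4). Both were lowest on array 3, as 67 of the 136 members were. Beyond AT5G13380, the loci AT5G13400 and AT5G13410 had means of 0.66 and 0.46 and did not share the difference. AT3G46750 averaged -4.66 ± 0.67, against -2.58 ± 0.46 (SD, n = 4 each) in AT3G46770, which had -2.28, -2.95, -3.0 and -2.09. Their values did not overlap, although the same 2 arrays were lowest in both. These were arrays 2 and 3, whose mean was the lower one in 112 of the 136 members. AT3G58240 had -2.79, -2.08, -2.13 and -2.10, and AT3G58260 had -2.48, -2.53, -1.05 and -2.01. The values of these 2 loci overlapped, with means of -2.28 and -2.02. Of the measured loci beside AT3G58240, AT3G58220 averaged 0.33, while AT3G58210 had -0.32, -0.74, -0.77 and -1.63, below 0 on every array. Neighbouring loci can be related copies that share signal on a probe, and no sequence was used here to compare them.

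**Figure D4:**
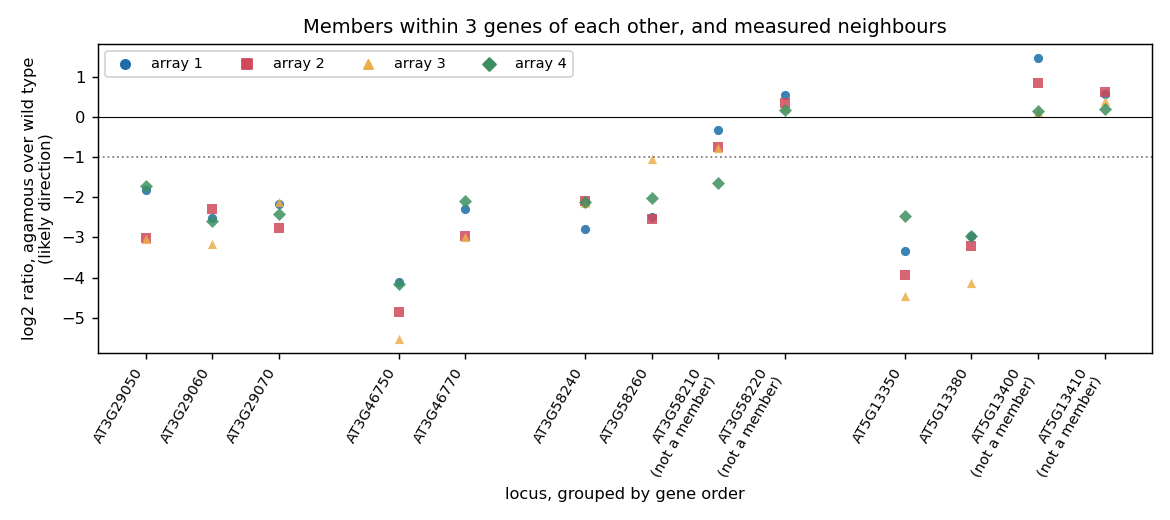
Log2 ratios on the 4 arrays (y axis, 1 symbol per array) for the 9 members that lie within 3 genes of another member, grouped by gene order (x axis), and for the non-member loci measured within 3 genes of them. The members lie below -1 on every array, AT3G58210 lies below 0 on every array with a mean of -0.87, and AT3G58220, AT5G13400 and AT5G13410 lie above 0.

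Within 3 genes of a member lie 797 distinct loci, of which 170 were measured singly with 4 values. Of these 170 loci, 10 met the rule (5.88%), against 3.02% of all 5363 loci, and the difference between these shares was not tested. The 10 are the 9 members above and URE, the urease gene and direct neighbour of AT1G67540. URE had -3.07, -3.34, -4.17 and -2.87, and AT1G67540 had -1.62, -1.79, -3.11 and -1.85. Both were lowest on array 3, as 67 of the 136 members were. The 161 measured neighbours that are not members had a median of 0.13, against 0.18 over all loci. Of them 14 (8.70%) averaged -1 or lower. The share of all loci, 7.42%, counts the members too, so that it is no like comparison, and the difference was not tested. In the annotation 30 members overlap another gene model, 26 of them a protein-coding one. For 6 of the 30 members an overlapping gene was measured by probes of its own, and it averaged between -0.36 and 0.62. AT1G15410 had 0.37, 0.35, 0.50 and 0.39, while the overlapping member AT1G15415 averaged -4.31. The other overlapping genes above 0 were AT2G03420 at 0.62, AT1G19240 at 0.50 and AT5G47360 at 0.32, and the members they overlap averaged -3.17, -3.03 and -3.26. These 4 genes thus did not share the low ratio of the member. The remaining 2, AT1G78790 at -0.25 and AT5G38895 at -0.36, were nearer to 0 than the members AT1G78780 at -2.48 and AT5G38900 at -2.29. AT2G03410, AT1G78780 and AT5G38900 also overlap another gene model that was not measured singly. AT1G15415, AT1G19230 and AT5G47350 overlap no other. For the other 24 members no overlapping gene was measured singly, among them AT1G13970, which overlaps WRKY4, and AT5G05720, which overlaps ASA1. The strand and position of the probes were not used here, and for genes not measured singly the signal of the overlapping gene cannot be told apart.

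The edge of the rule fell among loci with similar values. Just inside, AT5G40645 had -2.35, -2.08, -2.03 and -1.68, AT5G64690 averaged -2.02 with -1.08 on array 4, and AT3G58260 averaged -2.02 with -1.05 on array 3. Just outside by the mean were AT1G16950 and AT1G61590, both at -1.997, and AT2G25625 at -1.98. The members on the inside are thus not set apart from the loci on the outside. A further 12 loci averaged -2 or lower but had an array above -1, most often array 4 (8 loci) or array 1 (7 loci). Among them AT4G40020 had -0.97 on array 4, and AT4G14530 had -0.96, -1.43, -6.64 and -1.09, a mean of -2.53 set by the bound on array 3. AT3G28570 had -0.80 on array 1. Of the 63 unnamed loci with 3 values, 0 met the rule on those arrays.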

How the data were processed

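The deposited table gives 1 log2 ratio of the 2 channels for every feature of an array, which the authors processed and normalized as in a cited publication, per the labels; the steps are not given there. The scale was read from the values, which end at plus and minus 6.64. Which channel is the numerator, and the centring, stay unknown; the array medians as deposited were 0.17, -0.14, -0.11 and 0.14. The table held 26933 features: 26090 A-numbered and 384 GP probes, 424 empty and 35 control features. No column of per-sample values was left unused (0).

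Probes were named through the platform annotation. Of the A-numbered probes 5750 list 1 gene, 7449 several and 12891 none, and only the first were used. Symbols and gene order came from RefSeq's table for TAIR10.1, which pairs loci with symbols but not with products. No build is given for the probes, so no coordinates or sequences are printed. A-numbered probes of 1 locus were averaged, and all other A and GP probes stayed features of the fit.

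Members and lists were chosen with earlier results of these data known. Signs of arrays 2 and 3 were turned. Features with values on at least 3 arrays were tested against 0, two-sided, with limma 3.58.1 (R 4.3.3) at a Benjamini-Hochberg adjusted p of 0.05, a step tested on simulated data. Where the sets are not said to be separate plants, limma's test measures only the spread between arrays, and their number limits the precision. Loci were to be named as the 12 lowest means, the 3 nearest the threshold on each side, up to 4 per product family, up to 2 increased loci per family, and loci with probes over 2 apart; families could not be formed, and no member had several A-numbered probes. Loci named for evenness, gene order or GP probes were chosen after their values were seen. Alternatives were other signs, a dye term, centring, scaling, quantile normalization, bounds as missing, a block, unmoderated spread, other thresholds and each array left out. No paired analysis was needed, since each array holds both RNAs.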

Additional observations from a re-analysis of the deposited data

Results flagged for a closer look

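The 4 values of 44 loci (those named by rule or for their evenness, gene order or GP probes, and AT1G20130 and AT1G67540, which were chosen after the values were seen) were examined for 1 array far from the others, by the gap to the nearest value over the whole range (Dixon's test at its 95% critical value). Chance flags about 1 in 20 loci, and the limit on every array shapes the values of members. Over all members 14 of 136 (10.3%) exceeded it. Among the named loci, AT3G58240 (0.936) was lowest on array 1, AT3G03410 (0.838) and AT1G67540 (0.843) were lowest on array 3, AT1G78460 (0.860) was highest on array 4 and AT1G20130 (0.860) highest on array 1. AT4G14530, which is no member, had the gap 0.918 and its array 3 at the bound. The part of the spots behind these values was not tested.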

How the results depend on the processing

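The 136 members depended on the signs of the arrays, with 0 loci for the ratios as deposited and 0 when turned by the labels. The median of the members' means was 0.31 as deposited, 0.0154 turned by the labels and 3.11 with the opposite overall sign. A stricter mean of -3 left 74 loci. Other settings kept the count between 136 and 175, and centring each array, with 152 loci, included all 136 members. Leaving out an array gave 138 to 150 loci, 131 to 135 of them members. In the likely reading 134 members passed limma's test as lower. As deposited and turned by the labels 0 did, and with the opposite overall sign 134 passed as higher. The count was 101 for unmoderated spread and 102 to 122 without an array, where the fewer arrays lower the power.

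Over all features, limma called 2402 lower and 2157 higher. As deposited these were 0 and 58, with 196 and 402 at an unadjusted p under 0.05, and turned by the labels 0 and 0, with 127 and 65. A dye term gave 1433 and 328, unmoderated spread 1149 and 733. Lower and higher calls numbered 2686 and 892 after centring, which moved the median of all features to 0.02 from 0.15, 2707 and 1001 after centring and scaling, and 2159 and 1373 after quantile normalization. A replicate block of arrays 1 and 2 and of arrays 3 and 4 gave 2997 and 3935. Lower calls ran from 983 to 1500 and higher calls from 79 to 523 without an array, with the fewest of both without array 2. Each of 44 named loci kept its sign under 11 alternatives other than the sign readings, and 13 lost their call under at least 1 of them. The cause of the shifts was not tested.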
